A study of Mus musculus with 18 samples.

Results

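The Tmem transcripts are those of genes whose symbol starts with Tmem and a number, a placeholder series given to predicted transmembrane proteins. The members were chosen by their total reads: all such labels of a single gene, leaving out read-through labels that join it with a neighbour, with at least 50 long reads summed over their isoforms and all 18 libraries. This rule kept 138 of 192 Tmem labels, among 17714 gene labels in the table, and left 54 labels below the limit. The 138 members held 84183 reads in 1193 isoforms. Their abundance is therefore a description and was not tested.

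Many transmembrane proteins, though not those of mitochondria, are made on ribosomes that dock at the endoplasmic reticulum (ER). There the Sec61 translocon and partner complexes thread their membrane-spanning segments into the lipid bilayer. The mRNA of such a protein is therefore often held at the ER surface, away from mRNAs that are translated free in the cytosol. Apart from Tmem147os, an antisense label that the member rule also kept, the Tmem symbols share only a predicted membrane-spanning topology. The proteins sit in the ER, the Golgi, endosomes and lysosomes, mitochondria, the nuclear envelope, the base of the primary cilium or the cell surface. They have channel, transporter, assembly-factor or still unassigned roles.

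The study compared RNA packaged in small extracellular vesicles (sEVs), the membrane-bounded particles that cells release, with RNA of the cells that released them. Long-read PacBio libraries of polyadenylated RNA were made from primary mouse brain cultures, in 6 groups of 3 libraries each: sEVs from astrocytes, microglia and neurons, and the astrocytes, microglia and neurons themselves. All groups were primary cultures from mouse brain, and the labels name no genotype, treatment or age. They also do not say whether the 3 replicates of a group were separate cultures, so a p-value covers only how far these libraries differ from each other, which may be technical.

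Library totals lay between 434298 and 683381 reads. By the protocols, the sEV libraries were sequenced in 1 pool and the cell libraries in another, so that fraction and sequencing pool cannot be told apart in any sEV against cell value. Astrocyte sEVs replicate 1 and neuron sEVs replicate 1 stood apart, with 6.76% and 8.94% of their reads on the predicted gene Gm42047, against at most 1.63% in any other library. Reads of mitochondrially encoded genes made up 0.0474% to 0.641% of sEV libraries and 0.818% to 7.67% of cell libraries. The labelled cell types carried their markers: the summed microglial list stood at 5073.1 to 9870.7 CPM (here counts scaled to the unadjusted library total, as for all marker lists) in microglia sEVs and 16596.9 to 20503.9 in microglia cells, although Tmem119 and Itgam had 0 reads in microglia sEVs and Cx3cr1 had 0 in microglia cells. The astrocyte list stood at 13419.0 to 28048.6 in astrocyte sEVs and 32165.0 to 32888.3 in astrocyte cells, and the neuron list at 2867.2 to 3703.0 in neuron sEVs and 6210.8 to 7602.5 in neuron cells. Neuron cells also held 4437.0 to 5077.5 CPM of the astrocyte list.

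The members with most reads were Tmem59 with 7549 reads over all libraries, Tmem47 with 4671, Tmem50a with 3085, Tmem9b with 3036, Tmem254 with 2244 and Tmem30a with 2218. Just inside the limit stood Tmem196 with 55 reads, and Tmem37 and Tmem91 with 56 each. Just outside it stood Tmem201, Tmem163 and Tmem132b with 45 each. The smallest value above 0 in the isoform table was 2, so a 0 can hide a single read. The filter on low counts passed 132 members among 8184 genes tested, and left out Tmem150a with 87 reads, Tmem117 with 76, Tmem251 with 69, Tmem53 with 67, and Tmem37 and Tmem91.

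Tmem transcripts took a smaller share of the reads in sEVs than in the cells of every cell type. The share was 0.471%, 0.525% and 0.505% of reads in astrocyte sEVs, against 1.45%, 1.39% and 1.62% in astrocyte cells. It was 0.398%, 0.330% and 0.388% in microglia sEVs, against 0.548%, 0.608% and 0.594% in microglia cells. Neuron sEVs had 0.504%, 0.510% and 0.517%, against 1.47%, 1.49% and 1.43% in neuron cells. Within each cell type the sEV and cell libraries did not overlap, and microglia cells held the smallest share among the cells. A share does not tell fewer cells of a type from less of an RNA per cell. With 3 libraries against 3, an exact permutation test cannot fall below 0.10, and none was run on the share. Between 65 and 105 members were detected in an sEV library and between 87 and 134 in a cell library. All 3 libraries of a group were at 0 reads for 21 members in astrocyte sEVs, 46 in microglia sEVs and 14 in neuron sEVs, against 8 in astrocyte cells, 38 in microglia cells and 2 in neuron cells. Of all 17714 gene labels, 11106 were detected in astrocyte sEVs and 11706 in astrocyte cells. Microglia had 8569 in sEVs and 8624 in cells, and neurons 11482 and 12604. All labels include those with few reads, which the member rule leaves out.

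**Figure D1:**
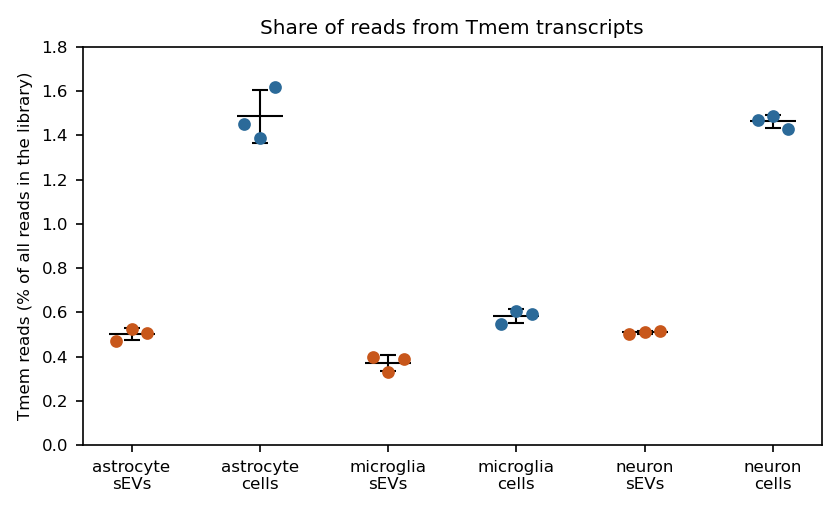
Share of each library's reads that fell on the 138 Tmem members (percent), for the sEVs and cells of each cell type. Points are the 3 libraries of a group and lines the mean with its SD: astrocyte sEVs average 0.501% and neuron sEVs 0.510% where their cells average 1.49% and 1.46%, and microglia sEVs average 0.372% where microglia cells average 0.583%.

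Gene by gene, sEVs were compared with the cells of the same type in a quasi-likelihood count model (edgeR) fitted to all 8184 genes and all 18 libraries, and a call needs a Benjamini-Hochberg adjusted p under 0.05 over those genes. Levels are given in CPM, counts scaled to the library total after TMM adjustment (edgeR's cpm), with a TMM factor between 0.639 and 1.27 for each library, and a log2 difference is sEVs minus cells. In astrocytes 36 of 132 members were lower in sEVs (27.3%), where 12.2% of all tested genes were lower, and 6 were higher (4.55%), where 8.04% of all genes were higher. In microglia 25 members were lower (18.9%, against 9.18% of all genes) and 0 were higher, against 2.70% of all genes. That count of 0 in edgeR had 4 members higher at an unadjusted p under 0.05, and DESeq2 called 2. Without TMM scaling the microglia median of all genes moved to 0.14 and 5 members were higher and 16 lower. In neurons 48 members were lower (36.4%, against 17.8% of all genes) and 9 were higher (6.82%, against 13.6%). The median log2 difference of the tested members was -1.81 in astrocytes, -0.35 in microglia and -1.92 in neurons, beside 0, 0 and -0.1 over all tested genes. With members at 0 reads in 1 group held at the bound that 3 reads per library allow, the members' medians were -1.20, -0.11 and -1.79. Leaving out microglia cells replicate 3 lowered the microglia count to 14, and leaving out any 1 of the neuron cell libraries lowered the neuron count of higher members to 5.

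Averaged over the 3 cell types, 57 members were lower (43.2%, against 19.5% of all genes) and 7 were higher (5.30%, against 14.5%). In all 3 cell types 12 members passed the test as lower, 9.09% of those tested where 4.50% of all genes were: Tmem9, Tmem9b, Tmem30a, Tmem33, Tmem43, Tmem50a, Tmem50b, Tmem59, Tmem97, Tmem175, Tmem214 and Tmem229b. A further 19 were lower in 2 cell types (14.4%, against 5.99% of all genes) and 35 in 1 (26.5%, against 13.7%). Across the 3 comparisons 55 members passed in neither direction (41.7%, against 59.9%), and 11 were higher in 1 cell type or more (8.33%, against 16.2%). In no cell type pair was a member lower in one and higher in the other, where 29 of all genes (0.354%) were. The count of 0 thus lies near the share of all genes. No member was higher in all 3 cell types, where 98 of all genes (1.20%) were. The 3 comparisons use separate libraries, and across the 132 tested members the Pearson correlation of their log2 differences was 0.62 for astrocytes with neurons, 0.39 for astrocytes with microglia and 0.33 for microglia with neurons, beside 0.65, 0.37 and 0.33 across all genes; genes are not independent replicates.

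A list of 67 members by known place or role was drawn up, and 71 members are in no list. The plot of log2 differences by role list places each tested member. The share of each list stands beside that of all tested genes, of which 12.2%, 9.18% and 17.8% were lower and 8.04%, 2.70% and 13.6% higher in sEVs of astrocytes, microglia and neurons. Lists are small, and no share was tested against that of all genes.

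**Figure D2:**
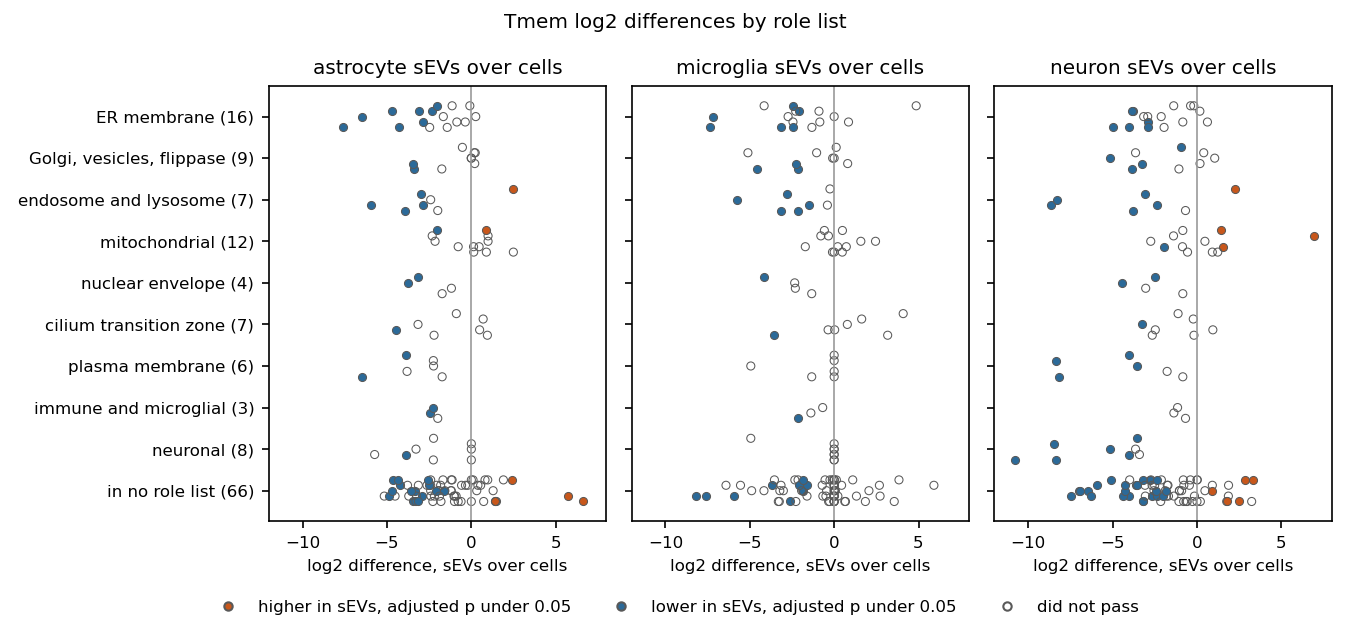
Log2 difference of each tested Tmem member, sEVs over cells, in 3 panels for astrocytes, microglia and neurons, with 1 row per role list. Orange points passed the test as higher in sEVs, blue points as lower, and open points did not pass. The endosome and lysosome row is mostly blue in each panel, while the mitochondrial row lies around 0 with medians of 0.30, 0.10 and -0.05.

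Golgi and secretory-pathway members included the member with most reads. Tmem59, a Golgi protein that slows glycosylation and shedding of the amyloid precursor protein, had 90.4, 279 and 136 CPM in astrocyte sEVs, against 1678, 1672 and 2157 CPM in astrocyte cells. It had 107, 171 and 269.6 CPM in microglia sEVs, against 741, 929 and 945 CPM in microglia cells. In neurons it had 96.2, 122 and 88.9 CPM in neuron sEVs, against 976, 978 and 1029 CPM in neuron cells. All 9 sEV libraries lay below all 9 cell libraries, by 10.9-fold between the group means in astrocytes, 4.78-fold in microglia and 9.7-fold in neurons (log2 differences -3.45 ± 0.39, -2.25 ± 0.38 and -3.28 ± 0.39 (SE), edgeR adjusted p = 8.42e-06, 0.000870 and 9.59e-06). Tmem30a, the subunit that lets phospholipid flippases leave the ER, had 54.3, 36.9 and 24.4 CPM in astrocyte sEVs, against 441, 327 and 462 CPM in astrocyte cells. Microglia gave Tmem30a 109, 67.9 and 65.7 CPM in microglia sEVs, against 313, 422 and 339 CPM in microglia cells. In neurons Tmem30a had 34.8, 27.4 and 12.4 CPM in neuron sEVs, against 401, 435 and 263 CPM in neuron cells. The groups did not overlap in any cell type, and Tmem30a fell in sEVs of all 3 (log2 differences -3.4, -2.14 and -3.86, edgeR adjusted p = 7.27e-06, 0.000888 and 1.97e-06). Of the 9 tested members of the list, 2 were lower in astrocytes (22.2%), 3 in microglia (33.3%) and 4 in neurons (44.4%), and 0 were higher. Tmem167, which takes part in secretion, did not pass in any cell type, with 95.4 ± 13.7 CPM in astrocyte sEVs and 83.1 ± 23.3 CPM in astrocyte cells, 120.4 ± 35.6 CPM in microglia sEVs and 69.7 ± 24.2 CPM in microglia cells and 88.9 ± 6.23 CPM in neuron sEVs and 78.3 ± 38.8 CPM in neuron cells (SD, n = 3 each). Tmem199, an assembly factor of the vacuolar proton pump, did not pass either: it had 156 ± 32.8 CPM in neuron sEVs and 118 ± 4.28 CPM in neuron cells (log2 difference 0.4, edgeR adjusted p = 0.659). The summed list stood at 416, 811 and 596 CPM in astrocyte sEVs, against 2601, 2429 and 3026 CPM in astrocyte cells. Most of that difference lay in Tmem59, which averaged 169 ± 98.6 CPM in astrocyte sEVs and 1836 ± 278 CPM in astrocyte cells, and in Tmem30a, which averaged 38.5 ± 15 CPM in astrocyte sEVs and 410.1 ± 72.8 CPM in astrocyte cells, while the list's median log2 difference in astrocytes was -0.01.

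Endosomal and lysosomal members were lower in sEVs in 4 of 7 tested in astrocytes (57.1%), 5 in microglia (71.4%) and 5 in neurons (71.4%), and 1 member, Tmem192, was higher in astrocytes and neurons. Tmem9b, a lysosomal glycoprotein, had 84, 95.1 and 58.8 CPM in astrocyte sEVs, against 550.4, 501 and 698 CPM in astrocyte cells. In microglia it had 88.8, 117 and 107 CPM in microglia sEVs, against 345, 261 and 288 CPM in microglia cells. Neurons gave 69.7, 116 and 114 CPM in neuron sEVs, against 551, 528 and 469 CPM in neuron cells. Every sEV library was below every cell library of its type, and the log2 differences were -2.88 ± 0.28, -1.52 ± 0.27 and -2.37 ± 0.27 (SE, edgeR adjusted p = 1.55e-06, 0.00130 and 5.68e-06). Its relative Tmem9, which binds the vacuolar proton pump, averaged 24.9 ± 15 CPM in astrocyte sEVs and 378 ± 44.8 CPM in astrocyte cells, 8.83 ± 4.82 CPM in microglia sEVs and 82.2 ± 16.5 CPM in microglia cells, and 30.6 ± 9.45 CPM in neuron sEVs and 422 ± 38.1 CPM in neuron cells (log2 differences -3.94, -3.17 and -3.77, edgeR adjusted p = 7.90e-06, 0.000497 and 7.06e-06). Tmem175, a lysosomal potassium channel, fell in all 3 cell types, with log2 differences of -2.99, -2.8 and -3.09 (edgeR adjusted p = 0.00201, 0.0101 and 0.00134), although the microglia value was 0.0702 in a fit to the microglia libraries alone. Tmem127, an endosomal protein that restrains mTOR signalling, had 0 reads in all neuron sEV libraries, against 88.3, 67.4 and 45.9 CPM in neuron cells, which is at least 12.1-fold lower (edgeR adjusted p = 0.00232). Bounds of this kind set a group at 0 to 3 reads in each library. Such bounds, and the 95% exact counting intervals given below, cover counting error only, since the reads carry no molecular identifiers. The intervals pool the libraries of a group and leave out the spread between replicates. Tmem192, a lysosomal membrane protein used as a handle to isolate lysosomes, went the other way: it had 80.1, 120.3 and 87.4 CPM in astrocyte sEVs, against 28.7, 6.93 and 17 CPM in astrocyte cells. It had 124, 129 and 40.9 CPM in neuron sEVs, against 34.7, 19.9 and 6.56 CPM in neuron cells. In both the sEV libraries lay above all cell libraries (log2 differences 2.44 and 2.25, edgeR adjusted p = 0.00708 and 0.00819). Microglia had Tmem192 at 61.6, 89.3 and 62.5 CPM in microglia sEVs, against 121, 65.1 and 68.7 CPM in microglia cells, ranges that overlap (edgeR adjusted p = 0.939).

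ER members were lower in sEVs in 8 of 16 tested in astrocytes (50%), 6 in microglia (37.5%) and 6 in neurons (37.5%), and 0 were higher in any. Tmem33, an ER membrane protein that binds reticulons, averaged 27.1 ± 12.2 CPM in astrocyte sEVs and 235 ± 27.3 CPM in astrocyte cells, 18.9 ± 20.7 CPM in microglia sEVs and 82.3 ± 18 CPM in microglia cells, and 11.2 ± 4.01 CPM in neuron sEVs and 155 ± 26 CPM in neuron cells (edgeR adjusted p = 0.00218, 0.0481 and 0.000624). Tmem97, the sigma-2 receptor, had 3.88, 7.76 and 0 CPM in astrocyte sEVs, against 63.1, 59.6 and 98.9 CPM in astrocyte cells. Its groups did not overlap there, and its log2 differences were -4.27, -2.46 and -2.91 in astrocytes, microglia and neurons (edgeR adjusted p = 0.00106, 0.0370 and 0.00377). Tmem214, an ER protein linked to stress-induced cell death, had 0 reads in all 6 sEV libraries of astrocytes and microglia, against 48.7, 24.9 and 49.4 CPM in astrocyte cells and 28.7, 34 and 43.5 CPM in microglia cells. These are at least 8.8-fold and 6.56-fold lower (edgeR adjusted p = 0.000690 and 0.00226), and in neurons 2 reads stood against 86, a ratio of 37.2-fold (95% exact counting interval 10 to 312). Tmem41b, a lipid scramblase needed to form autophagosomes, had 0, 9.7 and 14.3 CPM in astrocyte sEVs, against 195, 198 and 236 CPM in astrocyte cells (log2 difference -4.71 ± 1.17 (SE), edgeR adjusted p = 0.00831). Tmem109, an ER ion channel, averaged 12.3 ± 13.8 CPM in microglia sEVs and 111 ± 23.5 CPM in microglia cells (log2 difference -3.13, edgeR adjusted p = 0.0389), a call lost in 11 of 18 fits that leave out 1 library, with adjusted p between 0.0572 and 0.107, and also without TMM scaling (0.0807), in the microglia libraries alone (0.0562), with the replicate block (0.0605) and under both restrictions on isoforms (0.062 and 0.0649). Tmem208, part of a pathway that inserts membrane proteins, averaged 11.7 ± 10.8 CPM in microglia sEVs and 65.3 ± 16.3 CPM in microglia cells (log2 difference -2.46, edgeR adjusted p = 0.0126, 0.0554 without microglia cells replicate 3 and 0.0971 in the microglia libraries alone). Tmem258, a subunit of the oligosaccharyltransferase, did not pass in any cell type, with 10.1 ± 4.38 CPM in astrocyte sEVs and 18.3 ± 4.67 CPM in astrocyte cells, 25.2 ± 12.9 CPM in microglia sEVs and 13.9 ± 8.34 CPM in microglia cells, and 38.1 ± 20.3 CPM in neuron sEVs and 24.8 ± 2.96 CPM in neuron cells. Summed over the list, ER members stood at 559, 654 and 688 CPM in neuron sEVs, against 1431, 1644 and 1472 CPM in neuron cells.

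Nuclear envelope members were led by Tmem43, an inner nuclear membrane protein mutated in a form of cardiomyopathy. Tmem43 had 23.6, 0 and 0 CPM in microglia sEVs, against 109, 147 and 169 CPM in microglia cells. It fell in all 3 cell types (log2 differences -3.18, -4.15 and -2.48, edgeR adjusted p = 0.00838, 0.00545 and 0.0227), and Tmem209, a nuclear pore-associated protein, passed as lower in astrocytes and neurons. Of the 4 tested members of that list, 2 were lower in astrocytes (50%), 1 in microglia (25%) and 2 in neurons (50%). Ciliary members passed as lower in 1 of 7 tested in each cell type, Tmem138 in astrocytes, Tmem67 in microglia and Tmem17 in neurons. That share of 14.3% lies near the 12.2%, 9.18% and 17.8% of all genes. Tmem67, the transition-zone protein meckelin, averaged 12.3 ± 15.4 CPM in microglia sEVs and 152 ± 17.7 CPM in microglia cells (log2 difference -3.58, edgeR adjusted p = 0.0421), and lost the call in 11 of 18 fits that leave out 1 library (adjusted p 0.0595 to 0.13) and without TMM scaling (0.0767). Tmem138 averaged 1.82 ± 1.58 CPM in astrocyte sEVs and 46.5 ± 6.25 CPM in astrocyte cells (log2 difference -4.44, edgeR adjusted p = 0.0155). Tmem107, Tmem216 and Tmem218, other proteins of that zone, did not pass in any cell type.

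Some members with no role list passed in all 3 cell types. Tmem50a and Tmem50b are a pair of related small membrane proteins of the early secretory pathway. Tmem50a had 95.6, 44.6 and 34.4 CPM in astrocyte sEVs, against 318, 312 and 383 CPM in astrocyte cells. In microglia Tmem50a had 225, 181 and 171 CPM in microglia sEVs, against 642, 935 and 872 CPM in microglia cells. In neurons Tmem50a had 38.1, 29.5 and 56.9 CPM in neuron sEVs, against 522, 525 and 443 CPM in neuron cells. The groups did not overlap, and microglia had the highest levels in both fractions (log2 differences -2.52, -2.09 and -3.57, edgeR adjusted p = 5.54e-05, 0.000521 and 1.58e-06). Tmem50b fell by 2.54, 1.84 and 2.37 on the log2 scale in astrocytes, microglia and neurons (edgeR adjusted p = 0.000106, 0.00256 and 0.000111). Tmem229b had 0 reads in all 9 sEV libraries, against 31.9, 65.1 and 89.3 CPM in microglia cells and 31.5, 36.7 and 44.3 CPM in neuron cells, which is at least 11.5-fold and 6.77-fold lower (edgeR adjusted p = 0.00605 and 0.00419). Tmem140 averaged 33.3 ± 17.2 CPM in microglia sEVs and 203 ± 70.4 CPM in microglia cells (log2 difference -2.59, edgeR adjusted p = 0.0314), and its call was lost without any 1 of the 6 microglia libraries (adjusted p 0.0548 to 0.178), without TMM scaling (0.0976) and with the replicate block (0.0567). Tmem121 had 3 reads in astrocyte sEVs against 89 in astrocyte cells, a ratio of 27.7-fold (95% exact counting interval 9.17 to 137), with an edgeR adjusted p of 0.0109 that became 0.0545 without astrocyte cells replicate 1. Tmem254, among the members with most reads, did not pass in any cell type, with 153 ± 18.1 CPM in astrocyte sEVs and 263 ± 56.4 CPM in astrocyte cells, 47.7 ± 23.9 CPM in microglia sEVs and 48.1 ± 15.7 CPM in microglia cells, and 254 ± 36.7 CPM in neuron sEVs and 439.7 ± 97.9 CPM in neuron cells; the RefSeq table gives this name as a synonym of Tmem254a, Tmem254b and Tmem254c, and how reads were split among these copies is uncertain.

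**Figure D3:**
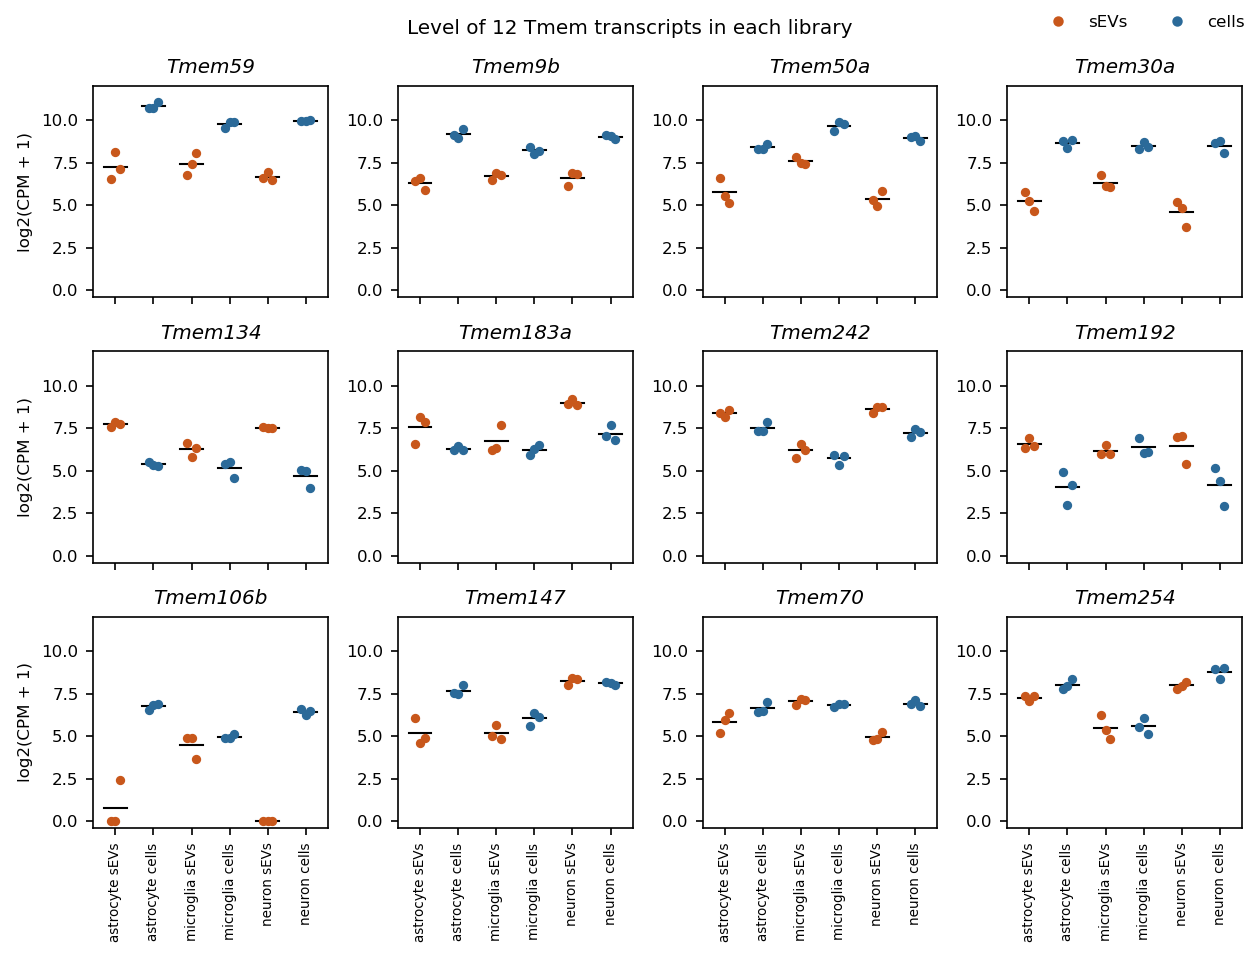
Levels of 12 Tmem members, log2(CPM + 1), in every library of astrocytes, microglia and neurons. Orange points are sEVs, blue points cells, and lines the group means. Tmem59, Tmem9b, Tmem50a and Tmem30a lie lower in sEVs in all 3 cell types, Tmem134, Tmem183a, Tmem242 and Tmem192 higher in astrocytes and neurons, and Tmem106b, Tmem147 and Tmem70 differ between cell types.

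Plasma membrane members were lower in sEVs in 2 of 6 tested in astrocytes (33.3%), 0 in microglia and 4 in neurons (66.7%), and those with neuronal roles in 1, 0 and 6 of 8 (12.5%, 0% and 75%). Microglia sEVs had 0 reads for all 8 tested neuronal members, and microglia cells held only 4.58 to 8.5 CPM of them in sum. Tmem130 had 0 reads in neuron sEVs, against 286, 438 and 437 CPM in neuron cells, at least 69.7-fold lower (edgeR adjusted p = 0.000104). Tmem25, which moderates NMDA receptor currents in mice, had 0 reads in neuron sEVs, against 75.7, 75 and 64 CPM in neuron cells, at least 12.9-fold lower (edgeR adjusted p = 0.00349). Tmem151a, a gene of paroxysmal movement disorders, had 0 reads in neuron sEVs, against 107, 76.5 and 47.6 CPM in neuron cells, at least 13.9-fold lower (edgeR adjusted p = 0.00528, and 0.156 with DESeq2). Not 1 read of these 3 genes was listed in neuron sEVs, while every neuron cell library held them. Tmem63b, a stretch- and osmolarity-gated cation channel, had 0 reads in neuron sEVs, against 66.2, 49 and 70.6 CPM in neuron cells, at least 11.2-fold lower (edgeR adjusted p = 0.00163). Tmem35a, a chaperone of nicotinic acetylcholine receptors, and Tmem59l, a brain-enriched homologue of Tmem59, had reads in neuron sEVs, at 12.2 ± 13.5 CPM against 209.8 ± 69.3 CPM in neuron cells for Tmem35a, and 5.99 ± 1.55 CPM against 225 ± 23.7 CPM for Tmem59l (edgeR adjusted p = 0.00641 and 0.000240). Tmem108, a neuronal endosome protein, had 0, 5.82 and 5.73 CPM in astrocyte sEVs, against 78.8, 62.3 and 79.1 CPM in astrocyte cells (log2 difference -4.24, edgeR adjusted p = 0.00727). Tmem47, a junction protein of the claudin superfamily, was lower both in astrocyte sEVs, at 77.5, 89.3 and 44.4 CPM against 1615, 1418 and 2486 CPM in astrocyte cells, and in neuron sEVs, at 0, 4.22 and 3.56 CPM against 364, 285 and 328 CPM in neuron cells (log2 differences -4.71 and -6.93, edgeR adjusted p = 3.70e-06 and 9.14e-07). The summed neuronal list stood at 69.7, 4.22 and 39.1 CPM in neuron sEVs, against 1222, 1124 and 1265 CPM in neuron cells. Summed neuron markers were lower there too, at 2867.2 to 3703.0 CPM in neuron sEVs and 6210.8 to 7602.5 in neuron cells, and their part in these values was not tested.

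Immune members were few: Tmem176a and Tmem176b, a pair of related proteins of antigen-presenting cells, and Tmem106a, a protein of macrophages. Tmem106a had 234, 177 and 344 CPM in microglia sEVs, against 894, 1158 and 1236 CPM in microglia cells. Its groups did not overlap (log2 difference -2.12 ± 0.57 (SE), edgeR adjusted p = 0.0200). Tmem176b averaged 64.1 ± 4.37 CPM in astrocyte sEVs and 317 ± 108 CPM in astrocyte cells (adjusted p = 0.00179 in edgeR) but did not pass in microglia, with 108 ± 71.1 CPM in microglia sEVs and 174 ± 36.1 CPM in microglia cells (edgeR adjusted p = 0.385). The microglial marker list stood at 0 to 98.4 CPM in astrocyte sEVs and 125.9 to 193.9 in astrocyte cells. There 7 and 5 of its 14 genes were detected. That list stood at 16596.9 to 20503.9 CPM in microglia cells, and its part in the astrocyte value was not tested.

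Of the 12 mitochondrial members, all tested, 1 was higher and 1 lower in astrocyte sEVs, 0 passed in microglia, and 3 were higher (25%) and 1 lower (8.33%) in neuron sEVs, where 13.6% and 17.8% of all genes were. Their summed level was 898.0, 757 and 1012 CPM in astrocyte sEVs, against 787, 593 and 873 CPM in astrocyte cells. It was 408, 472 and 521 CPM in microglia sEVs, against 409, 428 and 455 CPM in microglia cells. Neuron sEVs had 1046, 919.9 and 1138 CPM, against 642, 719.5 and 588 CPM in neuron cells. The sEV and cell ranges overlapped in astrocytes and microglia and not in neurons. Reads of mitochondrially encoded genes ran the other way, at 0.0474% to 0.641% of sEV libraries and 0.818% to 7.67% of cell libraries. Their part in these values was not tested. In neurons, much of the difference in the sum lay in Tmem242 and Tmem223, given below. The list's median log2 difference there was -0.05, with 6 members positive and 6 negative. Tmem242, an assembly factor of the mitochondrial ATP synthase, had 336, 278 and 374 CPM in astrocyte sEVs, against 159, 161 and 227 CPM in astrocyte cells. In neurons Tmem242 had 337, 433 and 418 CPM in neuron sEVs, against 125, 175 and 151 CPM in neuron cells. All sEV libraries lay above the cell libraries in both (log2 differences 0.85 ± 0.27 and 1.4 ± 0.27 (SE), edgeR adjusted p = 0.0323 and 0.000942), but the astrocyte call was lost in 10 of 18 fits that leave out 1 library (adjusted p 0.0503 to 0.147) and at 0.0779 without both Gm42047-rich libraries, 0.0589 with isoforms seen in 2 or more libraries and 0.296 with no filter. Tmem126a, an assembly factor of respiratory complex I, had 119, 146 and 121 CPM in neuron sEVs, against 31.5, 61.2 and 41 CPM in neuron cells (log2 difference 1.52, edgeR adjusted p = 0.0397), and lost the call in 10 of 18 such fits (adjusted p 0.0529 to 0.15) and under 6 other settings (0.0511 to 0.117). Tmem223, a factor of cytochrome oxidase assembly, was uneven: it had 191, 0 and 270.2 CPM in neuron sEVs, against 0, 0 and 3.28 CPM in neuron cells, with no reads in the second sEV library, and the read-through label Tmem223_Nxf1, counted as another gene, had 95 reads in neuron sEVs and 59 in neuron cells. Tmem14c, which brings a haem precursor into mitochondria, fell in astrocytes, at 16.8 ± 4.67 CPM in sEVs and 69.6 ± 17.8 CPM in cells (edgeR adjusted p = 0.00174).

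Other members higher in sEVs had no role in the lists. Tmem134 had 186, 233 and 216 CPM in astrocyte sEVs, against 44.4, 38.8 and 38.1 CPM in astrocyte cells. In neurons Tmem134 had 186, 181 and 179.5 CPM in neuron sEVs, against 31.5, 30.6 and 14.8 CPM in neuron cells. In microglia it had 97.9, 54.4 and 80.5 CPM in microglia sEVs, against 41.5, 45.3 and 22.9 CPM in microglia cells. All sEV libraries of all 3 cell types lay above the cell libraries, by 5.23-fold in astrocytes and 7.11-fold in neurons (log2 differences 2.38 ± 0.35 and 2.82 ± 0.36 (SE), edgeR adjusted p = 0.000112 and 1.95e-05), while the microglia difference of 1.1 did not pass (edgeR adjusted p = 0.0581). Tmem183a had 95.6, 283 and 232 CPM in astrocyte sEVs, against 74.5, 85.9 and 72 CPM in astrocyte cells. In neurons Tmem183a had 478, 593 and 453 CPM in neuron sEVs, against 129, 204 and 112 CPM in neuron cells. The groups did not overlap (log2 differences 1.39 and 1.77, edgeR adjusted p = 0.0254 and 0.00369), and the astrocyte call was lost without any 1 of the astrocyte cell libraries or without astrocyte sEVs replicate 2 or 3 (adjusted p 0.0693 to 0.165), with isoforms seen in 2 or more libraries (0.0634) and in the astrocyte libraries alone (0.0543). Tmem248 had 139, 141 and 139 CPM in neuron sEVs, against 12.6, 23 and 6.56 CPM in neuron cells (log2 difference 3.29, edgeR adjusted p = 0.0239), a call lost at 0.406 when only isoforms matching an annotated splice chain were summed, and at 0.0504 to 0.0989 without any 1 of the neuron cell libraries or neuron sEVs replicate 2. Tmem229a had 61.4, 71.7 and 85.3 CPM in neuron sEVs, against 18.9, 9.19 and 9.85 CPM in neuron cells (log2 difference 2.5, edgeR adjusted p = 0.00488). Tmem234 averaged 302 ± 21.6 CPM in neuron sEVs and 166 ± 15.1 CPM in neuron cells (log2 difference 0.86, edgeR adjusted p = 0.0283), and lost the call in 7 of 18 fits that leave out 1 library (adjusted p 0.0561 to 0.103) and under 4 other settings (0.0564 to 0.241). Tmem121b and Tmem141 had 0 reads in astrocyte cells and were at least 4.98-fold and 2.68-fold higher in astrocyte sEVs (edgeR adjusted p = 0.00817 and 0.00313).

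Other gene families gave a measure for these counts, with no test between families. Of 143 tested solute carrier genes (symbols in Slc, multi-pass transporters), 44, 35 and 47 were lower in sEVs of astrocytes, microglia and neurons (30.8%, 24.5% and 32.9%, against 12.2%, 9.18% and 17.8% of all genes), and 3, 0 and 2 higher (2.1%, 0% and 1.4%, against 8.04%, 2.70% and 13.6%). Of 111 tested zinc finger genes (symbols in Zfp, mostly nuclear DNA-binding proteins), 3, 3 and 4 were lower (2.7%, 2.7% and 3.6%) and 10, 2 and 16 higher (9.01%, 1.8% and 14.4%). Among genes of the machinery that threads proteins into membranes, such as the Sec61, signal peptidase and EMC subunits, 18, 17 and 16 of 40 tested were lower (45%, 42.5% and 40%) and 1, 1 and 2 higher. Of 11 oligosaccharyltransferase subunits, which add sugar chains in the ER, 7, 5 and 6 were lower (63.6%, 45.5% and 54.5%) and 0, 0 and 1 higher. Of 16 tested genes that once bore a Tmem symbol, among them Sting1 and Saraf, 7, 4 and 8 were lower (43.8%, 25% and 50%) and 0 were higher. Slc genes were more often lower than higher in all 3 cell types, as were Tmem members and, by smaller margins, all tested genes. More Zfp genes were higher than lower in astrocytes and neurons and not in microglia.

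A test of whether the sEV against cell difference varied between cell types (edgeR interaction of cell type and fraction) passed for 3 members of 132 (2.27%, against 3.96% of all genes). Tmem106b, a lysosomal protein and risk gene for frontotemporal dementia, had 0, 0 and 4.3 CPM in astrocyte sEVs, against 91.7, 112 and 117 CPM in astrocyte cells. In neurons Tmem106b had 0, 0 and 0 CPM in neuron sEVs, against 96.2, 75 and 87 CPM in neuron cells. In microglia it had 29, 29.1 and 11.5 CPM in microglia sEVs, against 28.7, 28.3 and 34.3 CPM in microglia cells. Astrocyte and neuron sEVs thus held 3 and 0 reads of it in all, while the microglia ranges overlapped. The ratio was 70.9-fold (95% exact counting interval 24 to 347) lower in astrocyte sEVs (adjusted p = 7.73e-05 in edgeR) and at least 15.5-fold lower in neuron sEVs (adjusted p = 2.60e-05), against a log2 difference of -0.4 in microglia (adjusted p = 0.830). The interaction had an adjusted p of 0.00256, and the microglia minus astrocyte and microglia minus neuron differences passed with adjusted p of 0.00982 and 0.00178.

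Tmem147, a component of a translocon complex for multi-pass proteins, had 254, 344 and 324 CPM in neuron sEVs, against 287, 279 and 254 CPM in neuron cells. It had 65.9, 23.3 and 28.7 CPM in astrocyte sEVs, against 181, 175 and 259 CPM in astrocyte cells. In microglia it had 30.8, 48.5 and 27.9 CPM in microglia sEVs, against 47.9, 82.1 and 68.7 CPM in microglia cells. It passed as lower in astrocytes (log2 difference -2.35 ± 0.37 (SE), edgeR adjusted p = 0.000199), while the neuron ranges overlapped (log2 difference 0.17, edgeR adjusted p = 0.765). The neuron minus astrocyte difference was 2.52 ± 0.49 (SE, edgeR adjusted p = 0.0356) and the interaction had an adjusted p of 0.0197, which was 0.0547 to 0.0619 without astrocyte cells replicate 3 or any 1 of the neuron cell libraries. Strand was not stated, so reads of Tmem147 and of its antisense label Tmem147os cannot be told apart; Tmem147os averaged 24.4 ± 23.3 CPM in neuron sEVs and 33.7 ± 6.53 CPM in neuron cells and did not pass. Tmem70, another assembly factor of the ATP synthase, had 26.5, 27.4 and 37.3 CPM in neuron sEVs, against 117, 136 and 107 CPM in neuron cells, with a log2 difference of -1.97 ± 0.35 (SE, edgeR adjusted p = 0.000388). In microglia Tmem70 had 114, 142 and 136 CPM in microglia sEVs, against 102, 119 and 117 CPM in microglia cells, which did not pass (adjusted p = 0.823 in edgeR). The microglia minus neuron difference was 2.18 ± 0.47 (SE, adjusted p = 0.0123), and the interaction, with an adjusted p of 0.0332, lost its call in 12 of 18 fits that leave out 1 library (0.0562 to 0.0952) and with no filter (0.124). Between pairs of cell types, 1 member differed for neuron minus astrocyte (0.758%, against 0.477% of all genes). For microglia minus astrocyte 1 differed (0.758%, against 1.27%), and for microglia minus neuron 2 (1.52%, against 5.14%). Without any 1 of the neuron cell libraries only 1 member passed the interaction, and 5 passed without astrocyte sEVs replicate 2 or microglia sEVs replicate 1. Without microglia sEVs replicate 1, 6 members differed for microglia minus neuron, and 4 without astrocyte sEVs replicate 1 or 2. The neuron minus astrocyte call was lost without any 1 of the cell libraries, without astrocyte sEVs replicate 2 or 3, without neuron sEVs replicate 2 or 3, and with the replicate block.

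Levels of Tmem transcripts also differed between the cell types, and each cell type was set against the mean of the other 2 within a fraction. In cells, 16 members were higher and 6 lower in astrocytes (12.1% and 4.55%, against 10.8% and 5.10% of all genes). Microglia had 10 higher and 46 lower (7.58% and 34.8%, against 18% and 24.4%). Neurons had 40 higher and 7 lower (30.3% and 5.30%, against 19.7% and 7.66%). The astrocyte shares lie near those of all genes. Without TMM scaling, which moved the median of all genes to 0.63 in the astrocyte comparison, 35 members were higher and 4 lower in astrocytes. Tmem130 had 286, 438 and 437 CPM in neuron cells, against 0 reads in the cells of both other types, at least 61.6-fold higher (edgeR adjusted p = 2.39e-05). Tmem59l had 230.3, 245 and 199 CPM in neuron cells, against 0 reads in astrocyte and microglia cells, at least 35.8-fold higher (edgeR adjusted p = 7.64e-06). Tmem151a had 107, 76.5 and 47.6 CPM in neuron cells, against 0 in the others, at least 12.3-fold higher (edgeR adjusted p = 0.00141, and 0.0958 with DESeq2). All 3 were in every neuron cell library and in no astrocyte or microglia cell library. Tmem191c, whose symbol marks 1 of several copies, and Tmem179 were higher in neuron cells by 6.91 and 6.56 on the log2 scale (edgeR adjusted p = 2.73e-05 and 0.00789). The part of the astrocyte marker reads found in neuron cells in these values was not tested. Without neuron cells replicate 2, 4 members were lower in neuron cells.

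Among astrocyte cells, Tmem47 stood at 1615, 1418 and 2486 CPM, against 364, 285 and 328 CPM in neuron cells and 0, 0 and 4.58 CPM in microglia cells (log2 difference 6.17 ± 0.42 (SE), edgeR adjusted p = 4.35e-07). Microglia cells held 2 of its reads in all, 621-fold (95% exact counting interval 172 to 5128) below the others. Tmem100, a membrane protein induced by BMP signalling, averaged 237 ± 21.7 CPM in astrocyte cells, against 1.89 ± 3.27 CPM in microglia cells and 80.8 ± 29.8 CPM in neuron cells (log2 difference 4.21, edgeR adjusted p = 0.00294). Tmem98, which blocks self-cleavage of the myelin regulator Myrf, was higher in astrocyte cells by 3.82 on the log2 scale (edgeR adjusted p = 0.00106), and astrocyte cells held 4291.7 to 9333.9 CPM of the oligodendrocyte list, with all 9 of its genes in the table detected, against 95.8 to 101.3 in microglia cells and 597.1 to 1652.9 in neuron cells; their part was not tested. Tmem127 had 2 reads in astrocyte cells against 140 in the other cells, a ratio of 49.7-fold (95% exact counting interval 13.5 to 415), with an edgeR adjusted p of 0.0229, a call lost in 5 of 18 fits that leave out 1 library (0.0557 to 0.0992). Tmem159, a lipid droplet assembly factor, averaged 5.69 ± 5 CPM in astrocyte cells, against 108 ± 23.6 CPM in microglia cells and 12.7 ± 0.443 CPM in neuron cells (edgeR adjusted p = 0.0147, and 0.0876 to 0.088 without astrocyte cells replicate 2 or 3). Without astrocyte cells replicate 3, 7 members were higher and 1 lower in astrocyte cells, and without replicate 1, 10 were higher and 3 lower. The lower count was 2 without astrocyte cells replicate 2 or neuron cells replicate 1.

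Among microglia cells, Tmem171 had 185, 178 and 183 CPM and 0 reads in the other cells, at least 40.6-fold higher (edgeR adjusted p = 1.03e-06). Tmem108, Tmem191c and Tmem35a had 0 reads in all microglia cell libraries, at least 9.82-fold, 17.8-fold and 14.2-fold below the mean of the others (edgeR adjusted p = 0.000429, 0.000215 and 0.00118). Without microglia cells replicate 1, 30 members were lower in microglia cells. Tmem106a stood at 894, 1158 and 1236 CPM in microglia cells, against 8.6, 0 and 5.65 CPM in astrocyte cells and 6.31, 0 and 0 CPM in neuron cells. Tmem140 averaged 203 ± 70.4 CPM in microglia cells, against 1.9 ± 1.64 CPM in astrocyte cells and 0 reads in neuron cells (log2 difference 8.24, edgeR adjusted p = 4.65e-06).

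To show the regulatory context of some members that mark a cell type in cells, and of Tmem106b, which differed between cell types, their proximal promoters are given. Each is the 250 bases before the annotated start in RefSeq's GRCm38.p6 table, a different build from the one the submitters aligned to, matched by symbol. They are Tmem47 at chrX:81070394-81070643 on the plus strand, Tmem106a at chr11:101581992-101582241 on the plus strand, Tmem140 at chr6:34862896-34863145 on the plus strand, Tmem106b at chr6:13069509-13069758 on the plus strand, Tmem130 at chr5:144761579-144761828 on the minus strand and Tmem59l at chr8:70487349-70487598 on the minus strand, each printed along its gene's strand; Tmem171 was not matched. Capitals mark GGAAGT or its reverse complement ACTTCC, the core letters read by ETS-family factors such as the myeloid factor PU.1.
Tmem47: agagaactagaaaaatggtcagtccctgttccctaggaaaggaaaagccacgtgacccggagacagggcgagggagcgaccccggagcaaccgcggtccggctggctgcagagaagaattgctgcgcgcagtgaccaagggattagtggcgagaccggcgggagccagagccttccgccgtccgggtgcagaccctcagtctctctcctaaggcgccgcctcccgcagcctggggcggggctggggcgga
Tmem106a: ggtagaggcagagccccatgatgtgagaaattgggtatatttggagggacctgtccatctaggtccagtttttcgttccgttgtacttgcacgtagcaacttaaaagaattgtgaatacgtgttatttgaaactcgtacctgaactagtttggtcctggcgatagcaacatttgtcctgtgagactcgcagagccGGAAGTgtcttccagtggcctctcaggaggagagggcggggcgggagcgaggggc
Tmem140: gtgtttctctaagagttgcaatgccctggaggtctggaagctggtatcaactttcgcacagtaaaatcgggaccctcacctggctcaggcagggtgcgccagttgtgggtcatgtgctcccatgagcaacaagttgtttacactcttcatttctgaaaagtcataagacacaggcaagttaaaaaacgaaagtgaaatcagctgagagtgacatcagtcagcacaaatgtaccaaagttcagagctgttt
Tmem106b: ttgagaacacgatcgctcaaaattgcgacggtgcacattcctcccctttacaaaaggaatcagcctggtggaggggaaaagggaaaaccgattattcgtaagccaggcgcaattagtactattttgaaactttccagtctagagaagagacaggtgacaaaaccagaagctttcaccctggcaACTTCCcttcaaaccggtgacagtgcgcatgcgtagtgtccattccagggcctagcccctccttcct
Tmem130: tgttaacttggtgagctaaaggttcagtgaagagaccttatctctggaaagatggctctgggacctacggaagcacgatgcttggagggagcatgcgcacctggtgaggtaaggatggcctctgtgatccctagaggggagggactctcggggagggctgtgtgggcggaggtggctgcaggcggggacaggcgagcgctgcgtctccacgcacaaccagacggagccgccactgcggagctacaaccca
Tmem59l: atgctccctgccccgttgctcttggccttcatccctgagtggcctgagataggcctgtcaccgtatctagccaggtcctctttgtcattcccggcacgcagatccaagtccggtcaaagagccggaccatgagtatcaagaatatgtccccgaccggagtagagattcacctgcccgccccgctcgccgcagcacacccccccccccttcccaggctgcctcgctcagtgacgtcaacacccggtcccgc
The letters occurred once in the windows of Tmem106a and Tmem106b and in none of the others, the microglial member Tmem140 included. Of all 32851 promoters given by RefSeq, 19.7% held the letters on either strand, and among 151 promoters of 115 members 25.8% did, so a match is a description only. CG pairs numbered 21 in Tmem47, 11 in Tmem106a, 4 in Tmem140, 10 in Tmem106b, 13 in Tmem130 and 16 in Tmem59l, where the median was 16 over the members' promoters and 6 over all.

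Between the sEVs of the 3 cell types, 16 members were higher and 3 lower in astrocyte sEVs (12.1% and 2.27%, against 14.2% and 5.74% of all genes). Microglia sEVs had 17 higher and 40 lower (12.9% and 30.3%, against 20.3% and 29.7%). Neuron sEVs had 38 higher and 8 lower (28.8% and 6.06%, against 26.8% and 12%). The higher shares of astrocyte and neuron sEVs and the lower share of microglia sEVs lie near those of all genes. For astrocyte sEVs the split was 23 higher and 1 lower without TMM scaling, where the median of all genes was 0.59, and 20 higher and 10 lower with DESeq2. Tmem171 again marked microglia, at 154, 198 and 109 CPM in microglia sEVs and 0 reads in the other sEVs, at least 30.1-fold higher (edgeR adjusted p = 1.38e-06). Tmem106a had 234, 177 and 344 CPM in microglia sEVs, against 0, 3.88 and 0 CPM in astrocyte sEVs and 0, 4.22 and 0 CPM in neuron sEVs (log2 difference 7.55, edgeR adjusted p = 1.29e-07). Both were highest in microglia in the sEVs as in the cells. Tmem159 and Tmem123, a cell-surface protein, were higher in microglia sEVs by 6.1 and 4.59 on the log2 scale (edgeR adjusted p = 1.53e-06 and 7.34e-06). Tmem229a had 0 reads in microglia sEVs and was at least 11.7-fold below the others.

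Neuron sEVs held more Tmem229a, Tmem191c, Tmem147, Tmem248 and Tmem208 than the other sEVs (log2 differences 4.42, 4, 3.02, 2.71 and 2.47, edgeR adjusted p = 6.97e-05, 0.000458, 8.09e-07, 0.0143 and 0.000463). Tmem248 did not pass with isoforms of annotated splice chains alone (adjusted p = 0.433). In astrocyte sEVs, Tmem47 had 77.5, 89.3 and 44.4 CPM, against 0, 0 and 0 CPM in microglia sEVs and 0, 4.22 and 3.56 CPM in neuron sEVs (log2 difference 6.53, edgeR adjusted p = 5.44e-06). Tmem88b had 85.3, 21.3 and 2.87 CPM in astrocyte sEVs and 0 reads in the other sEVs, which is at least 6.67-fold higher (edgeR adjusted p = 0.00782). It was uneven and highest in the Gm42047-rich replicate 1, without which its log2 difference went from 7.42 to 5.78 and kept its call. The oligodendrocyte list stood at 2017.7 to 3252.5 CPM in astrocyte sEVs. It was at 22.8 to 99.7 in microglia sEVs and 290.5 to 445.6 in neuron sEVs, and its part in these astrocyte sEV values was not tested. Tmem65, a mitochondrial inner membrane protein, was higher in astrocyte sEVs by 4.55 on the log2 scale (edgeR adjusted p = 0.0273), lost without astrocyte sEVs replicate 2 or 3 or neuron sEVs replicate 2 (0.0511 to 0.0626). Tmem126b, a complex I assembly factor, averaged 205 ± 44.3 CPM in astrocyte sEVs, against 47.5 ± 42.9 CPM in microglia sEVs and 91.9 ± 18.9 CPM in neuron sEVs (edgeR adjusted p = 0.0488), a call lost in 16 of 18 fits that leave out 1 library (0.0563 to 0.15). Tmem106c was higher there by 1.59 on the log2 scale (edgeR adjusted p = 0.0125), with an adjusted p of 0.0605 without astrocyte sEVs replicate 3. With isoforms of annotated splice chains alone, the Tmem106c difference was 1 on the log2 scale and did not pass (edgeR adjusted p = 0.424), and Tmem65 and Tmem126b did not pass either (0.0576 and 0.0656). Without astrocyte sEVs replicate 2, 6 members were higher in astrocyte sEVs, and 8 without replicate 3. Without astrocyte sEVs replicate 3, 4 members were lower in neuron sEVs.

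Long reads place each molecule on an isoform. Of the members' reads, 88.8% ± 1.98 in astrocyte sEVs and 93.3% ± 0.336 in astrocyte cells lay on isoforms whose whole splice chain matches an annotated transcript, against 81.7% and 89.2% for all genes (SD, n = 3 each). In microglia it was 82.3% ± 2.95 in sEVs and 88.5% ± 0.322 in cells, against 86.3% and 91.5% for all genes. In neurons it was 85.3% ± 3.27 in sEVs and 89.2% ± 1.25 in cells, against 77.5% and 85.8%. The members' mean thus stood above that of all genes in astrocytes and neurons and below it in microglia. The smaller class of reference matches, whose ends also lie near the annotated ends, held 50.3% ± 4.57 of member reads in astrocyte sEVs and 27.4% ± 1.12 in astrocyte cells, against 40.5% and 26.1% for all genes. It held 49.8% ± 4.07 in neuron sEVs and 38.6% ± 0.875 in neuron cells, against 36.8% and 28.7% for all genes. In microglia it held 36.5% ± 2.73 in sEVs and 36.3% ± 0.6 in cells, against 35% and 34.3%. Isoforms that keep only the 3′ part of a transcript held 5.26% ± 0.203 in neuron sEVs and 2.15% ± 1.34 in neuron cells, where all genes had 9.94% and 3.83%. In microglia sEVs 8.88% ± 1.83 of member reads, against 3.48% ± 0.177 in microglia cells, lay on isoforms with splice sites absent from the annotation, where all genes had 3.87% and 2.35%. Both main isoforms of Tmem171 were of that kind and held 55.3% and 28.5% of its reads in microglia sEVs, against 54.2% and 42.3% in microglia cells. These shares carry no test.

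At the isoform level, 159 isoforms of 118 members were among 9370 tested isoforms. In astrocytes 5 were higher (3.14%, against 3.22% of all isoforms) and 38 lower (23.9%, against 12.3%) in sEVs. In microglia 0 were higher (against 1.36%) and 17 lower (10.7%, against 8%). In neurons 6 were higher (3.77%, against 6.26%) and 62 lower (39.0%, against 20.9%). The microglia count of 0 higher in edgeR had 3 at an unadjusted p under 0.05. The reference-match isoform of Tmem9b averaged 64.1 ± 11.1 CPM in astrocyte sEVs and 606.0 ± 120.6 CPM in astrocyte cells (log2 difference -3.24 ± 0.31 (SE), edgeR adjusted p = 9.35e-06). The main isoform of Tmem30a averaged 19.9 ± 7.36 CPM in neuron sEVs and 401 ± 88.3 CPM in neuron cells (log2 difference -4.32 ± 0.42 (SE), edgeR adjusted p = 8.48e-06). For Tmem134, 2 isoforms passed as higher both in astrocyte and in neuron sEVs. Its main isoform averaged 99.8 ± 46.3 CPM in astrocyte sEVs and 23 ± 7.47 CPM in astrocyte cells (log2 difference 2.11, edgeR adjusted p = 0.0180), and 88.5 ± 23.9 CPM in neuron sEVs and 12.6 ± 7 CPM in neuron cells (log2 difference 2.78, edgeR adjusted p = 0.00340). The count of higher isoforms in astrocytes was 0 without astrocyte cells replicate 2 or 3 and 1 without astrocyte cells replicate 1 or astrocyte sEVs replicate 2, so both astrocyte Tmem134 calls were lost in the fits that gave 0. In neurons 3 were higher without neuron cells replicate 2 or 3. The count of lower isoforms in astrocytes ranged from 19 to 38 when 1 library was left out, with the lowest without astrocyte cells replicate 3. That in neurons ranged from 25 to 62, with the lowest without neuron cells replicate 1, and that in microglia from 8 to 17.

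A change in the balance of isoforms within a gene (edgeR diffSpliceDGE, Simes test) was tested for 27 members of 1752 genes. It passed for 1 member in astrocytes (3.70%, against 2.00% of all genes), 0 in microglia (against 2.40%) and 0 in neurons (against 2.00%). At an unadjusted p under 0.05 there were 3, 1 and 3 members. The member that passed in astrocytes was Tmem147. In astrocyte sEVs 62.7% of its reads lay on its reference-match isoform and 25.3% on one with another 5′ end, against 94% and 1.1% in astrocyte cells (adjusted p = 0.0399 in edgeR). In neuron sEVs the same isoforms held 24.5% and 59.2%, against 80.9% and 11% in neuron cells (edgeR adjusted p = 0.202). In microglia sEVs they held 96.6% and 0%, against 100% and 0% in microglia cells. The reference-match isoform fell in neuron sEVs, at 69.6 ± 10.7 CPM, against 247.9 ± 12.1 CPM in neuron cells (log2 difference -1.83 ± 0.31 (SE), edgeR adjusted p = 0.000808), while the isoform with the other 5′ end averaged 168.8 ± 36.3 CPM in neuron sEVs and 33.5 ± 16.2 CPM in neuron cells and did not pass (edgeR adjusted p = 0.139). The usage call in astrocytes was made in 0 of 18 fits that leave out 1 library, and it was not made without both Gm42047-rich libraries.

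**Figure D4:**
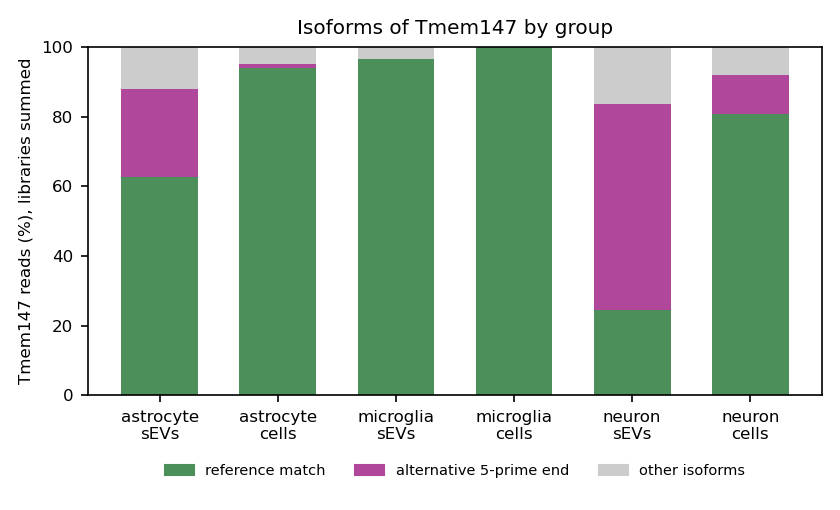
Share of Tmem147 reads (percent, libraries of a group summed) on its reference-match isoform, on the isoform with another 5′ end and on all others, in the sEVs and cells of each cell type. The isoform with another 5′ end holds 59.2% in neuron sEVs and 11% in neuron cells, and 25.3% in astrocyte sEVs and 1.1% in astrocyte cells.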

How the data were processed

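The authors deposited 1 table of read counts per isoform for all 18 libraries, with a gene label and a splice category for each isoform, per the file header. The submitters' processing notes name minimap2 and GRCm39; which isoform caller, annotation and strand setting were used was not given in the sources used here. Counts of isoforms with the same gene label were summed, so 17714 labels remained, and the counts of Tmem members were read from that sum. The members, role lists and comparison families were chosen with earlier results of these data known.

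R 4.3.3 with edgeR 4.0.16 (limma 3.58.1) gave TMM scaling, filterByExpr and quasi-likelihood tests in 1 fit of 6 groups, with Benjamini-Hochberg adjustment over 8184 genes or 9370 isoforms. DESeq2 1.42.0 was an alternative, beside other filters, scalings, isoform sums, sample sets and a replicate block. Replicates differed from each other by 4.59 to 20.9 times counting noise (chi-square per degree of freedom), so none was a duplicate. Counts of 8184 genes were simulated for the astrocyte comparison, with changed genes drawn only from those above a set mean CPM. The tests recovered 5.97%, 43.3% and 72.7% of genes changed by 1, 2 and 3 on the log2 scale. They made 4 false calls among 7229 unchanged genes that passed the filter. Recovery of members below the set CPM was not measured.

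Genes were named by a rule: members past the threshold whose groups did not overlap and whose higher group averaged 20 or more reads, the 8 largest per direction and comparison, the 5 largest per cell type, the smallest p-values for the other tests, the members with most reads, those at the 50-read limit, and role-list members as examples. Tmem121b and Tmem141 fall outside it and were chosen after their values were seen. The comparison of Tmem140 in microglia cells with the other cells, and the choice of genes shown with promoters, also fall outside it. Protein features were planned and not run, since no protein table was used here. Promoters came from RefSeq.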

Additional observations from a re-analysis of the deposited data

Results flagged for a closer look

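In 3 members the difference between sEVs and cells itself differed between the cell types, by edgeR's interaction test with Benjamini-Hochberg adjustment over all tested genes. Tmem106b had an adjusted p of 0.00256, with sEV levels below those of cells in astrocytes and neurons and overlapping ranges in microglia. Tmem147 had an adjusted p of 0.0197, with lower sEV levels in astrocytes and overlapping ranges in neurons. Tmem70 had an adjusted p of 0.0332, with lower sEV levels in neurons and overlapping ranges in microglia.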

How the results depend on the processing

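Of 75 named results, 54 kept their call in every fit run for them and 21 lost it in 1 or more, with 0 reversed; full-splice matches alone could be run for 67 of them, the mean of 10 or more reads for 66 and the groups compared alone for 36. Correlations between sEV and cell libraries of the same replicate number were -0.08 to 0.08. With 3 replicates per group, such values cannot show whether the numbers pair the samples. Values below are counts of called members unless isoforms are named. Medians over all genes moved under TMM-free scaling to 0.14 in microglia and -0.47 in neurons (sEVs against cells). DESeq2 gave 2 microglia members higher in sEVs, 11 higher in the mean over cell types, differences in sEV loading for 2 (neuron minus astrocyte), 5 (microglia minus astrocyte) and 11 (microglia minus neuron), 9 interactions, 25 higher in astrocyte cells and 10 lower in astrocyte sEVs, with 9 astrocyte isoforms higher and 27 microglia isoforms lower. Without TMM, microglia sEVs had 5 higher and 16 lower, loading counts were 0, 3 and 14 in the same order, interactions 9, astrocyte cells 35 higher, microglia cells 74 lower, astrocyte sEVs 1 lower, and 1 microglia isoform was higher. With no filter, loading counts were 2, 3 and 7, interactions 5, and isoforms 0 higher and 22 lower in astrocytes, 9 lower in microglia, and 1 higher and 26 lower in neurons; more features are then tested. With a mean of 10 or more reads per library, 1 microglia member was higher, loading counts over astrocyte and neuron were 2 and 4 for microglia, neuron cells had 25 higher, and 25 astrocyte and 34 neuron isoforms were lower; fewer features are then tested. With full-splice matches only, astrocyte cells had 10 higher and 3 lower, microglia cells 30 lower, astrocyte sEVs 10 higher and neuron sEVs 5 lower. Isoforms seen in 2 or more libraries left 0 neuron minus astrocyte differences and 25 higher in neuron sEVs. The microglia groups alone gave 14 lower. The replicate block gave 0 neuron minus astrocyte differences, 10 higher and 1 lower in astrocyte sEVs, 25 astrocyte and 10 microglia isoforms lower and 0 usage calls in astrocytes. Without both Gm42047-rich libraries, loading counts for microglia were 2 over astrocyte and 6 over neuron, 3 astrocyte isoforms were higher and usage calls numbered 0. For these counts the cause was not tested where no construction is named.

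Leaving out 1 library at a time gave, for sEVs against cells, 4 to 6 higher and 24 to 41 lower in astrocytes, 0 to 1 and 14 to 28 in microglia, 5 to 10 and 33 to 55 in neurons, and 6 to 8 and 52 to 62 in the mean. Loading counts were 0 to 1, 1 to 2 and 2 to 6, and interactions 1 to 5. Against the other cells, 7 to 20 higher and 1 to 6 lower were found in astrocytes, 10 to 11 and 30 to 55 in microglia, and 31 to 46 and 4 to 7 in neurons. Against the other sEVs, 6 to 18 and 1 to 4 were found in astrocytes, 14 to 18 and 36 to 43 in microglia, and 30 to 39 and 4 to 10 in neurons. Isoform counts were 0 to 5 and 19 to 38, 0 to 1 and 8 to 17, and 3 to 7 and 25 to 62, and usage calls 0 to 0, 0 to 1 and 0 to 0. Depth limits members with few reads: at 434298 to 683381 reads per library, 3 reads stand for the least level a 0 can exclude.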

Other observations

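Labels that join a Tmem gene with a neighbour, which the member rule leaves out, numbered 8. Tmem223_Nxf1 held 163 reads, of which 95 lay in neuron sEVs, 9 in microglia cells and 59 in neuron cells, and 0 in the other groups. Each of the other 7 held at most 9 reads. Nxf1 encodes an mRNA export receptor.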
